A study of Saccharomyces cerevisiae with 8 samples.

Results

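Evolved strain 2 is one of 3 isolates of the budding yeast Saccharomyces cerevisiae taken after growth in high glucose for approximately 450 generations, and its transcripts were compared here with those of the strain labelled parental. All arrays titled for these strains were taken, which gave 4 of the series' 8 arrays, 2 for strain 2 and 2 labelled parental; the other 4 arrays, 2 for evolved strain 1 and 2 for evolved strain 3, show where strain 2 changed more or less than they did. The labels name BY4742, a laboratory strain, as the parent of every group, with cultures of 100 ml in a complete broth holding 2% glucose and 0.5% ammonium sulfate, aerated at 30 °C and transferred daily for a month as 10 µl into fresh medium. Biotin-labelled cRNA made from 100 ng of total RNA was hybridised to an Affymetrix array. Each evolved strain is a single isolate, the labels give none of its mutations, and they give no growth phase at harvest. The arrays of a group are called biological replicates, but separate cultures are not mentioned, so a p-value here reflects nothing but the spread between arrays, which may be technical.

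Levels are given as log2 intensity for 5449 genes, each from probe sets assigned to 1 S. cerevisiae gene. Background, the 95th percentile of the probe sets for another yeast species on the same array, lay between 4.27 and 4.40, and each array had 5296 to 5326 genes above it. A gene was called where its adjusted p with limma was under 0.05 in a model fitted to all 8 arrays. The replicates of strain 2 correlated across genes at 0.9994 and the arrays labelled parental at 0.9972; the median gene's standard deviation was 0.0244 in strain 2 and 0.0536 in the arrays labelled parental. The arrays measure RNA of whole cultures, in which fewer cells of a kind and less RNA per cell cannot be told apart.

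The label BY4742 was checked against genes that this genotype fixes, and all 8 arrays went against it in LYS2 and MET17. BY4742 is an alpha strain that lacks LYS2 and carries MET17. Its other auxotrophies are HIS3, LEU2 and URA3. URA3 was at background on all 8 arrays, as the label has it. Its mean was 3.32 in strain 2 and 3.62 on the arrays labelled parental. LEU2 was low but above background, at means of 5.22 and 5.33 in the same order, and HIS3 was high, at 12.94 and 11.4. LYS2, an enzyme of lysine synthesis, stood at 11.56 and 11.59 in strain 2, 11.31 and 11.34 for strain 1, 11.51 and 11.56 in strain 3, and 9.09 and 9.04 on the arrays labelled parental, far above background throughout. MET17, an enzyme of methionine synthesis, stood at 4.15 and 3.84 in strain 2, 4.41 and 3.88 for strain 1, 4.03 and 3.91 in strain 3, and 4.14 and 4.51 on the arrays labelled parental, at or near background. The 7 marker genes of a cells, the opposite mating type, had a summed level of 11.22 to 11.28 in strain 2 and 13.74 to 13.80 on the arrays labelled parental, with 7 of 7 above background in both; the 5 markers of alpha cells summed to 9.25 to 9.26 in strain 2, with 5 of 5 above background, and to 8.76 to 8.80 on the arrays labelled parental, with 3 of 5 above it. Of genes that haploid cells of either mating type use, the signalling scaffold STE5 differed from the arrays labelled parental by -2.35 (log2) in strain 2, the G protein subunit STE18 by -3.80, the kinase FUS3 by -2.18, GPA1 by -1.24 and STE4 by -0.16; FAR1, which arrests the cycle on pheromone, was at background in strain 2, at 3.41 and 3.88, against 6.33 and 5.80 on the arrays labelled parental. Being above background does not set strain 2 apart, since markers of both mating types were so on the arrays labelled parental. STE3 and SAG1, of alpha cells, had means of 7.63 and 7.85 in strain 2 and 7.11 and 7.93 on those arrays. MF(ALPHA)1 and MF(ALPHA)2 had means of only 5.30 and 5.24 in strain 2, and the HMLALPHA1 probe set matches several transcripts by its suffix. STE6, of a cells, was 0.32 higher in strain 2. The a-cell markers summed higher than the alpha-cell markers both in strain 2 and on the arrays labelled parental, which goes against an alpha label for both. In strain 2 the levels of STE5, STE18, FUS3 and FAR1 also go against a haploid label, while STE4 and GPA1 had means of 9.77 and 7.61. Mating type and ploidy were not tested. Every direction against the parent below is therefore a direction against the arrays labelled parental, and the part of a genotype difference in it was not tested. The 3' minus 5' signal of 7 quality-control transcripts was larger on the arrays labelled parental than in strain 2 for 5 and smaller for 2, with a median difference of -0.30 (log2, strain 2 minus parental). Between strain 2 and the mean of the other evolved strains that median was -0.03, and strain 2 lay between strains 1 and 3 for 3 of 7 and at most 0.12 outside them for the others. Ribosomal RNA controls were kept outside these 7, and their difference, strain 2 minus parental, was 1.92 for 18S and 0.82 for 25S. For 18S the 3' minus 5' signal was -3.61 in strain 2, -4.24 in strain 1 and -4.02 in strain 3. For 25S it was 3.21, 2.82 and 3.39 in the same order. The part of RNA quality in the results was not tested.

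Yeast given plentiful glucose imports it through a family of hexose transporters, sends most of it through glycolysis to ethanol even in air, and represses respiration and the use of other carbon sources. Fast growth also rests on making ribosomes: nucleolar factors process and assemble ribosomal RNA copied by RNA polymerase I, while ribosomal proteins, tRNA synthetases and nucleotides are supplied in step. Mitochondria have a ribosome of their own, whose proteins are nearly all encoded in the nucleus and which makes core subunits of the respiratory chain.

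The transcripts of strain 2 differed widely from the arrays labelled parental, with the kinase gene RCK1, the glucose transporter gene HXT2 and the acid phosphatase gene PHO5 among the largest rises and the pheromone gene MFA2, the chaperone gene SSA3 and the ammonium permease gene MEP2 among the largest falls. Of 5449 genes, 4636 were called (85.1%), 2316 higher (42.5%) and 2320 lower (42.6%). At least 2-fold higher were 651 genes (11.9%), and 583 were at least 2-fold lower (10.7%). The median difference over all genes was -0.0078 and its median size 0.52 on the log2 scale. Since most genes were called, a call against the arrays labelled parental says little about a gene or a list, and sizes are given below.

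RCK1, a protein kinase gene, rose most: its level was 11.51 and 11.52 in strain 2 and 4.89 and 4.84 on the arrays labelled parental, near background. The difference was 6.65 ± 0.036 (log2, SE), or 101-fold, with an adjusted p of 1.14e-09, against 5.99 in strain 1 and 5.57 in strain 3. HXT2, a high-affinity hexose transporter, stood at 10.62 and 10.67 in strain 2 and at 5.57 and 4.90 on the arrays labelled parental, a rise of 5.41 ± 0.186 (42.5-fold). The hexose transporters HXT3 and HXT4 rose 13.9-fold and 11.3-fold. PHO5, the secreted acid phosphatase, rose 19.5-fold, AAH1, which deaminates adenine, 15.5-fold, BIO5, which imports a biotin precursor, 12-fold and ARO4, which starts aromatic amino acid synthesis, 10.7-fold. SRL4 rose 20.7-fold, the rhomboid protein gene RBD2 10.0-fold and the gene YGR035C 9.47-fold. The silent alpha gene HMLALPHA1 was at background on the arrays labelled parental and at least 5.08-fold higher in strain 2, from a probe set that by its suffix matches several transcripts. For these 12 genes, the largest rises, log2 differences ran from 3.24 to 6.65 and adjusted p-values with limma from 1.14e-09 to 3.1e-07. Both strain 2 arrays lay above both arrays labelled parental, as for all 2316 genes called higher (42.5% of all genes). Against both other evolved strains 6 of the 12 were called higher too (RCK1, HXT2, AAH1, HXT3, BIO5 and RBD2); that test shares the strain 2 arrays with this one.

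**Figure D1:**
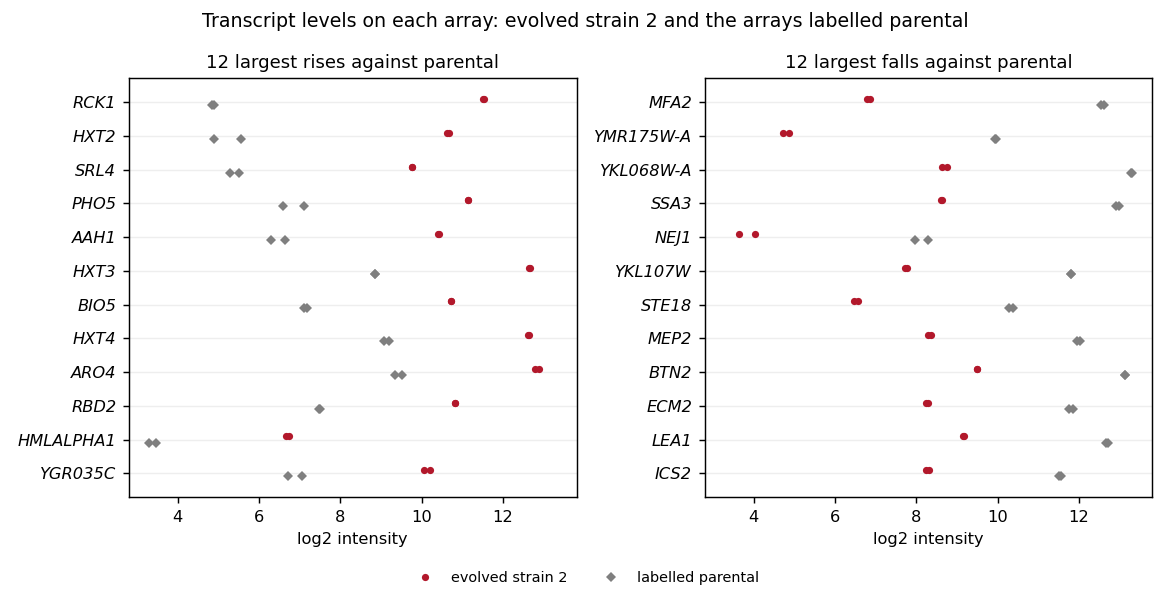
Log2 intensity of the 12 largest rises (left panel) and 12 largest falls (right panel) of strain 2 against the arrays labelled parental; circles are the 2 arrays of strain 2 and diamonds the 2 arrays labelled parental. The groups do not overlap for any of the 24 genes, which was a condition of their choice. HXT2 and PHO5 have the widest gaps between the arrays labelled parental among the rises.

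MFA2, which encodes the pheromone of a cells, fell most, to 6.87 and 6.79 in strain 2 against 12.61 and 12.53 on the arrays labelled parental (-5.74 ± 0.052, or 53.5-fold lower). SSA3, an Hsp70 chaperone, fell 20-fold, with log2 differences from the arrays labelled parental of -4.33 in strain 2, -4.33 in strain 1 and -4.05 in strain 3. BTN2, which sorts misfolded proteins, fell 12.4-fold, at -3.63, -3.62 and -3.50 in strains 2, 1 and 3. NEJ1, a factor that joins broken DNA ends, did not exceed background in strain 2 and was at least 13.8-fold lower. STE18, a subunit of the G protein that relays pheromone, fell 13.9-fold, the splicing factors ECM2 and LEA1 11.7-fold and 11.6-fold, and MEP2, the high-affinity ammonium permease, 12.6-fold. The genes YMR175W-A, YKL068W-A, YKL107W and ICS2, whose roles are not given here, fell 35.5-fold, 24.3-fold, 16.6-fold and 9.57-fold. The 12 log2 differences ran from -5.74 to -3.26, with no standard error above 0.153. Of these 12, 2 were called against both other evolved strains: YKL107W, lower than in both, and MEP2, higher than in both.

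Where strain 2 departed from the other evolved strains, the steps were small. Several hexose transporters, enzymes of guanine nucleotide synthesis and ribosome assembly factors and a formate dehydrogenase were higher, and some mitochondrial ribosomal proteins and a neighbouring run of chromosome III genes were lower. The joint test took the larger p of the contrasts with strain 1 and strain 3, required the same sign and was adjusted over all 5449 genes. The arrays labelled parental cancel from its differences but not from its p-values, since they enter the shared estimate of the spread. The joint test called 488 genes (8.96%), 280 higher (5.14%) and 208 lower (3.82%), and for each of them both strain 2 arrays lay outside the range of the 4 other evolved arrays. Of the 488, the smaller of the 2 differences was at least 1.5-fold for 32 and had a median of 1.2-fold; 3 genes were at least 2-fold higher than both by their measured values (0.0551%), FDH1, HXT2 and YAL037C-A, of which YAL037C-A was at background on the arrays of both other strains and so has only a lower bound, at least 1.46-fold above strain 1 and 1.56-fold above strain 3, and 1, MAK32, was at least 2-fold lower (0.0184%). Against strain 1 alone 2873 genes were called (52.7%), 1625 higher (29.8%) and 1248 lower (22.9%), and against strain 3 alone 1744 (32.0%), 791 higher (14.5%) and 953 lower (17.5%).

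The number of joint calls depended on the arrays: it was 799 without either array labelled parental or with the 6 evolved arrays alone, and between 125 and 241 without 1 evolved array (168 and 125 without strain 2 replicate 1 or 2, 212 and 241 without strain 1 replicate 1 or 2, 184 and 183 without strain 3 replicate 1 or 2). With each array centred on its median the joint calls were 213 higher and 284 lower, and against strain 1 alone 1098 higher and 1713 lower, so that the balance between higher and lower depends on the scaling.

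Set beside the arrays labelled parental, 219 of the 488 genes were higher than parental and higher than both other strains, and 168 were lower than parental and lower than both. In 49 genes strain 2 was lower than parental but higher than the other evolved strains, and in 25 it was higher than parental but lower than they were. Among genes not called against parental, 12 were higher and 15 lower than in both other strains. These groups share the strain 2 arrays in all their contrasts.

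**Figure D2:**
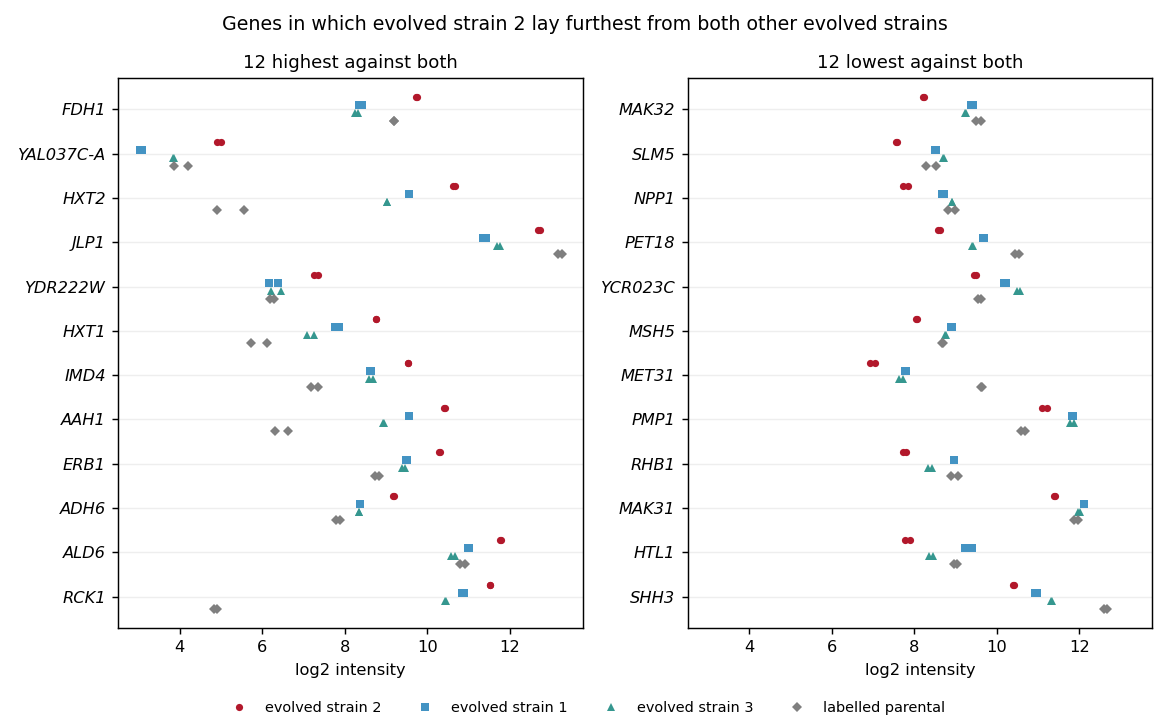
Log2 intensity of the 12 genes highest (left panel) and 12 lowest (right panel) in strain 2 relative to both other evolved strains, ranked by the smaller difference; circles are strain 2, squares strain 1, triangles strain 3 and diamonds the arrays labelled parental, 2 arrays each. Strain 2 lies outside the range of the 4 other evolved arrays for all 24 genes, which was a condition of their choice. The place of strain 2 relative to the arrays labelled parental differs from gene to gene.

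Glucose uptake was the first of these differences. HXT2 stood at 10.62 and 10.67 in strain 2, at 9.56 and 9.55 in strain 1 and at 9.02 and 9.02 in strain 3. The standard error of its differences, 0.186, takes in the spread of the arrays labelled parental, at 5.57 and 4.90. Strain 2 was 2.13-fold above strain 1 and 3.08-fold above strain 3 (joint adjusted p = 0.0177). That call was lost without any 1 of the 6 evolved arrays, at adjusted p-values of 0.0593 to 0.125, while the smaller difference stayed between 1.06 and 1.11. HXT1, a low-affinity transporter induced by high glucose, stood at 8.76 and 8.76 in strain 2, 7.86 and 7.76 for strain 1, 7.25 and 7.09 in strain 3, and 6.10 and 5.72 on the arrays labelled parental. It was 1.94-fold above strain 1 and 3.02-fold above strain 3 (joint adjusted p = 0.00607), and the call was lost only without strain 2 replicate 2 (adjusted p = 0.0609). HXT3, also of low affinity, was 1.28-fold and 1.3-fold above them (joint adjusted p = 0.00118). All 3 genes had the order strain 2, other evolved strains, parental on every array.

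Of 17 listed transporter genes 15 were measured, and 3 were higher than in both other strains (20%, against 5.14% of all genes); none was lower. HXT4 differed from strain 3 by 0.09 and was not called jointly. HXT5, which slowly growing yeast expresses, fell by 0.28 on the log2 scale against the arrays labelled parental, while HXT7, a high-affinity transporter, differed from them by -0.02 without a call. Against the arrays labelled parental 5 of the 15 were higher and 4 lower (median -0.02), so that the change was in individual transporters. The probe sets of HXT9 disagreed in direction. Without 1 evolved array in turn, 1 to 2 of the transporters were called.

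Some genes of glycolysis and ethanol metabolism were also higher than in both other strains. All 8 measured enzymes of lower glycolysis were higher than on the arrays labelled parental, with a median of 1.31 in strain 2, 1.10 in strain 1 and 1.29 in strain 3. ENO2, an enolase, stood at 12.05 and 12.09 in strain 2, 11.47 and 11.41 for strain 1, 11.36 and 11.34 in strain 3, and 9.64 and 9.86 on the arrays labelled parental; it was 1.55-fold above strain 1 and 1.65-fold above strain 3. PYK2, a pyruvate kinase, was 1.31-fold and 1.26-fold above them. These 2 were the joint calls among the 8 (25%, against 5.14% of all genes called higher). ALD6, which oxidises acetaldehyde in the cytosol, shows a difference from all other strains: it stood at 11.76 and 11.79 in strain 2, 11.00 and 10.99 for strain 1, 10.67 and 10.58 in strain 3, and 10.91 and 10.80 on the arrays labelled parental. Against those arrays it was 0.92 higher in strain 2, 0.14 higher in strain 1 and at -0.22 in strain 3. Of 15 genes of ethanol and acetate metabolism 5 were higher than in both other strains (33.3%): ALD6, PDC1 and PDC6 (pyruvate decarboxylases), ACS2 (acetyl-CoA synthetase) and ADH4 (an alcohol dehydrogenase), the last 4 by 0.18 to 0.22 on the log2 scale against the nearer strain. PDC6 fell by 0.81 on the log2 scale against the arrays labelled parental. ADH6, an NADPH-dependent alcohol dehydrogenase outside that list, was 1.74-fold and 1.77-fold above strains 1 and 3. Among regulators of glucose repression, the repressor MIG2 was 1.90 above the arrays labelled parental and 0.58 above the nearer evolved strain, and MIG3 was 0.15 above the nearer strain; no other of the 22 had a joint call. Without 1 evolved array in turn, 1 to 4 of the ethanol and acetate genes were called.

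Genes of guanine nucleotide synthesis were higher in strain 2. IMP dehydrogenase, its committed step, is encoded by IMD2, IMD3 and IMD4, and GUA1 makes GMP from the product. IMD4 stood at 9.54 and 9.54 in strain 2, 8.61 and 8.63 for strain 1, 8.58 and 8.68 in strain 3, and 7.36 and 7.19 on the arrays labelled parental. Its level was 1.89-fold above strain 1 and 1.88-fold above strain 3, with strains 1 and 3 overlapping each other (joint adjusted p = 0.000964). GUA1 stood at 11.49 and 11.48 in strain 2, 10.94 and 10.90 for strain 1, 10.93 and 10.93 in strain 3, and 9.01 and 8.89 on the arrays labelled parental, a rise over the last of 5.79-fold. IMD3 was 1.24-fold and 1.23-fold above the other evolved strains. IMD2, at background on the arrays labelled parental and at least 3.12-fold above them, differed from strain 3 by 0.25 with no joint call; its probe set shares sequence with other transcripts by its suffix. In all, 5 of 5 genes were higher than on the arrays labelled parental. Their median difference was 2.27 in strain 2, 1.35 in strain 1 and 1.60 in strain 3. Higher than in both other strains were 3 of the 5 (60%, against 5.14% of all genes). Leaving out 1 evolved array in turn left 2 to 3 of them.

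In the wider purine list AAH1 stood at 10.41 and 10.42 in strain 2, 9.56 and 9.55 for strain 1, 8.96 and 8.92 in strain 3, and 6.63 and 6.30 on the arrays labelled parental, a graded order with no overlap between groups. APT1, which salvages adenine, was 1.31-fold and 1.44-fold above strains 1 and 3. ADE4, the first enzyme of purine synthesis from scratch, went the other way: it was 1.34-fold and 1.29-fold below them and 3.02-fold below the arrays labelled parental. These were the joint calls among 18 measured genes, 2 higher (11.1%) and 1 lower (5.56%). Of all genes 5.14% were called higher and 3.82% lower. For pyrimidines 5 of 15 genes were higher than in both other strains (33.3%). FUR4, which imports uracil, was 0.66 above the nearer strain on the log2 scale, URA7 (CTP synthase) 0.50, URA5 (orotate phosphoribosyltransferase) 0.32, URK1 (uridine kinase) 0.29 and FUI1 (uridine permease) 0.28. FUR4 was 0.76 above the arrays labelled parental, where strains 1 and 3 were 0.02 and 0.10 above. Without 1 evolved array in turn, 1 to 2 of the pyrimidine genes were called.

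**Figure D3:**
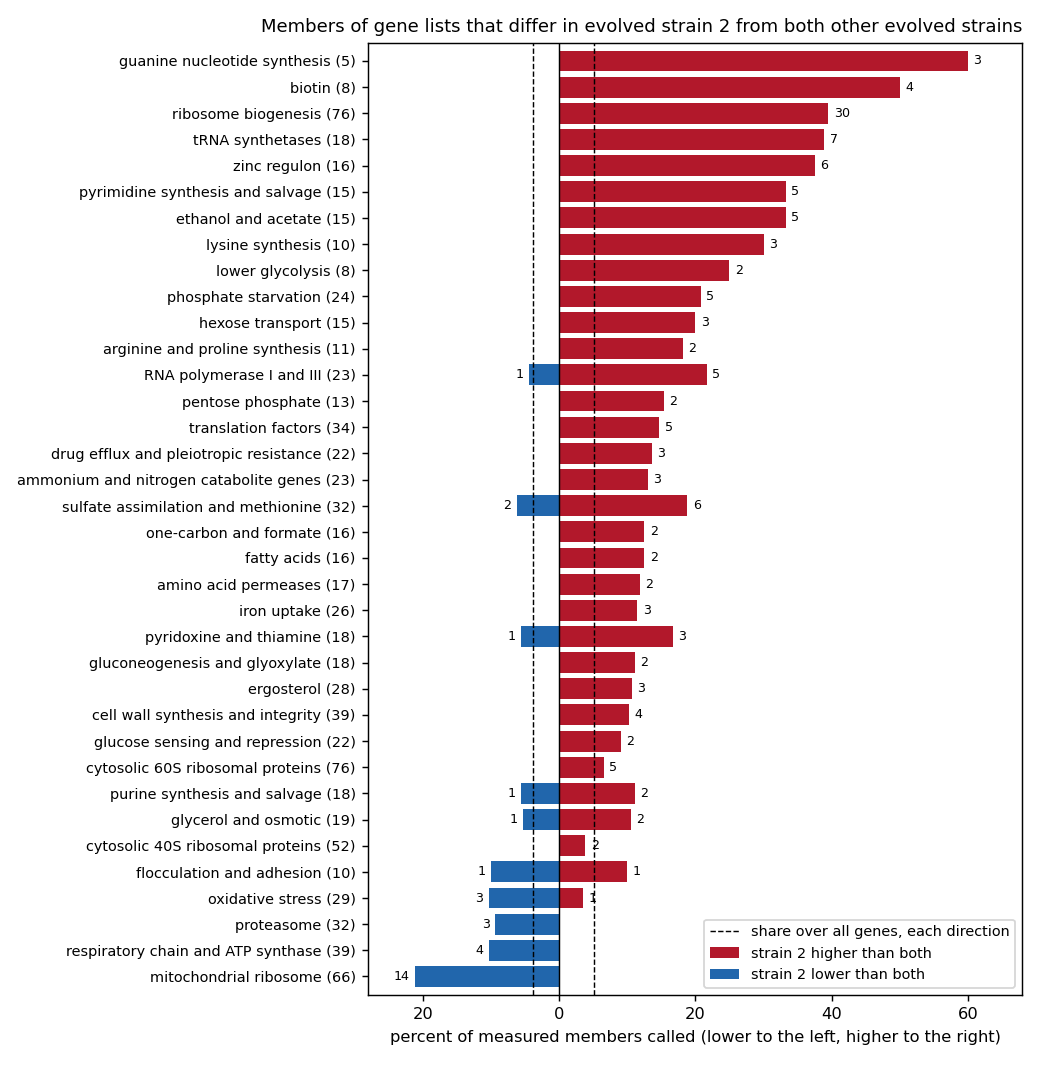
Percent of the measured members of 36 gene lists (number measured in brackets) that were higher (right, red) or lower (left, blue) in strain 2 than in both other evolved strains; numbers beside the bars are members called, dashed lines the shares over all genes (5.14% higher, 3.82% lower), and lists with fewer than 2 called members are not drawn. Guanine nucleotide synthesis has the highest share higher and the mitochondrial ribosome the highest share lower.

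Ribosome biogenesis held the largest number of joint calls of any list. Of all genes 5.14% were called higher and 3.82% lower than in both other strains. Of 76 nucleolar processing and assembly factors 30 were higher in strain 2 than in both other evolved strains (39.5%) and none was lower, with a median of 0.30 above the mean of those strains, against 0.0079 over all genes. ERB1, an assembly factor of the large subunit, stood at 10.32 and 10.28 in strain 2, 9.51 and 9.47 for strain 1, 9.40 and 9.46 in strain 3, and 8.74 and 8.82 on the arrays labelled parental. It was 1.75-fold and 1.83-fold above strains 1 and 3 (joint adjusted p = 0.000454). NOP58, a core protein of the particles that methylate ribosomal RNA, was 1.41-fold and 1.46-fold above them, the processing factor UTP8 1.45-fold and 1.4-fold, and the helicase DBP3 1.61-fold and 1.39-fold. Against the arrays labelled parental the list was mixed, with 42 higher and 26 lower and a median of 0.38 in strain 2, 0.19 in strain 1 and 0.04 in strain 3; UTP10 (2.12) and UTP14 (2.11) rose most in strain 2. The count of 30 was 26 with arrays centred on their median and between 12 and 18 without 1 evolved array.

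Other parts of the machinery that makes ribosomes and protein moved in the same direction in part. The share of all genes called higher than in both other strains was 5.14%. Of 23 genes of RNA polymerases I and III and their factors 5 were higher than in both other strains (21.7%), among them RPA190, the largest subunit of polymerase I, by 0.29 on the log2 scale against the nearer strain, and RPA34 and RPA49 by 0.31 and 0.33. RRN3, which recruits polymerase I, was lower than both, at -0.31 against the nearer strain. All 18 cytosolic tRNA synthetases were higher than on the arrays labelled parental, with a median of 1.42 in strain 2, 1.11 in strain 1 and 1.27 in strain 3, and 7 of them were higher than in both other strains (38.9%), led by FRS1 (phenylalanine) at 0.33 and SES1 (serine) at 0.27. Among 34 translation factors 5 were higher (14.7%), led by TEF4, a subunit of a translation elongation factor, at 0.46. Ribosomal proteins themselves showed little that set strain 2 apart: 74 of 76 genes of the large subunit and 46 of 52 of the small subunit were higher than on the arrays labelled parental, yet 5 (6.58%) and 2 (3.85%) were higher than in both other strains. Leaving out 1 evolved array in turn left 0 to 3 of the polymerase genes, 0 to 4 of the tRNA synthetases, 1 to 3 of the translation factors and 1 to 2 of the large-subunit proteins.

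**Figure D4:**
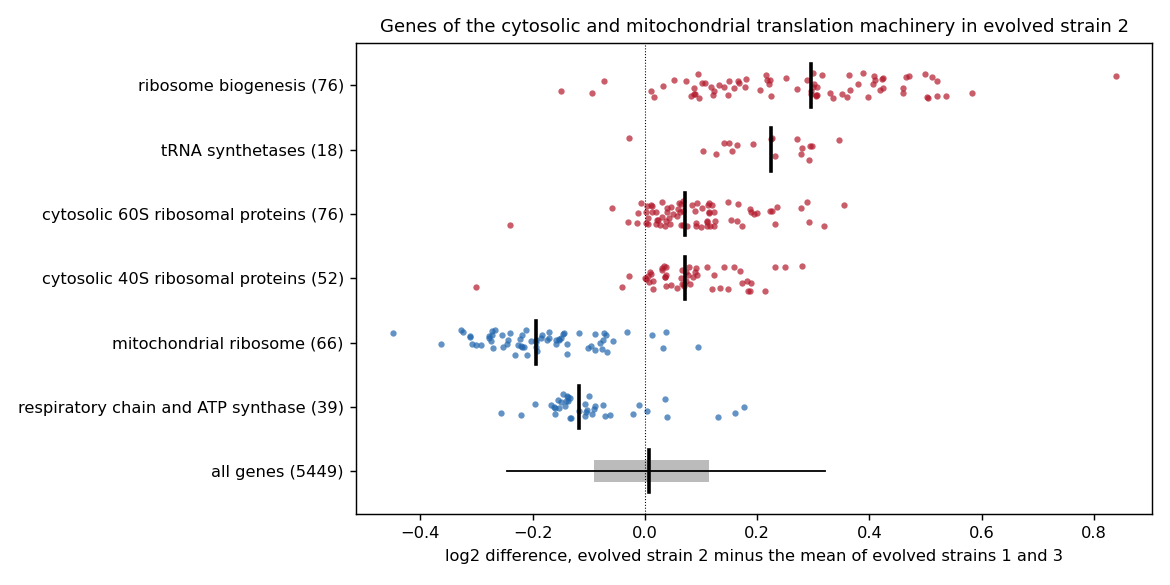
Log2 difference of strain 2 minus the mean of strains 1 and 3 for each member of 6 lists (points, number of genes in brackets, vertical lines their medians), above a bar for all 5449 genes that spans the 25th to 75th percentiles with whiskers to the 5th and 95th. The ribosome biogenesis points centre on 0.30, those of tRNA synthetases on 0.23, those of ribosomal proteins of either subunit on 0.07, and those of the mitochondrial ribosome on -0.19.

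The mitochondrial ribosome went the opposite way. Of its 66 measured protein genes 14 were lower in strain 2 than in both other evolved strains (21.2%, against 3.82% of all genes) and none was higher, and the median difference from the mean of those strains was -0.19. RSM22 stood at 9.92 and 9.84 in strain 2, 10.46 and 10.32 for strain 1, 10.25 and 10.30 in strain 3, and 9.97 and 10.02 on the arrays labelled parental; it differed from strains 1 and 3 by -0.51 and -0.39 and from the arrays labelled parental by -0.11 without a call. MRPL15 stood at 9.98 and 10.01 in strain 2, 10.41 and 10.39 for strain 1, 10.34 and 10.29 in strain 3, and 11.10 and 10.95 on the arrays labelled parental, below all the other arrays in strain 2. MRPL35 and MRPL19 differed from the nearer evolved strain by -0.26 and -0.24. Against the arrays labelled parental 55 of the 66 genes were lower and 6 higher, with a median of -0.62 in strain 2, -0.45 in strain 1 and -0.57 in strain 3. The differences between evolved strains were small: 17 genes were called with arrays centred on their median, 6 with the replicate number as a block and 0 to 4 without 1 evolved array.

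Nuclear genes of the respiratory chain and ATP synthase were lower than on the arrays labelled parental for 36 of 39 genes and higher for 2, with a median of -0.55 in strain 2, -0.53 in strain 1 and -0.44 in strain 3. QCR6, a subunit of complex III, differed from the nearer evolved strain by -0.22. With COX7, ATP4 and ATP7 it made up the 4 joint calls (10.3%), all lower, against 3.82% of all genes. Leaving out 1 evolved array in turn left 0 to 1. Enzymes of the tricarboxylic acid cycle (12 of 17 lower than on the arrays labelled parental, 2 higher) gave 1 joint call, CIT3, a mitochondrial citrate synthase, higher by 0.19 than the nearer strain.

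Several genes of sulfur metabolism were nearer to the arrays labelled parental in strain 2 than in the other evolved strains. Of 32 genes of sulfate assimilation and methionine synthesis 19 were lower than on the arrays labelled parental and 10 higher, with a median of -0.40 in strain 2, -0.77 in strain 1 and -0.66 in strain 3. JLP1, a dioxygenase outside that list that releases sulfite from sulfonates, stood at 12.69 and 12.72 in strain 2, 11.35 and 11.42 for strain 1, 11.75 and 11.70 in strain 3, and 13.16 and 13.26 on the arrays labelled parental. Its log2 difference from those arrays was -0.50 in strain 2, -1.82 in strain 1 and -1.48 in strain 3, and strain 2 was 2.5-fold and 1.97-fold above the other evolved strains (joint adjusted p = 0.000361). CYS3, which makes cysteine from cystathionine, stood at 10.18 and 10.18 in strain 2, 9.47 and 9.43 for strain 1, 9.60 and 9.59 in strain 3, and 10.24 and 10.03 on the arrays labelled parental. In strain 2 CYS3 thus lay among the arrays labelled parental (0.05, not called), where strains 1 and 3 differed from them by -0.68 and -0.54.

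MHT1, which uses S-methylmethionine to make methionine, and MET3, the ATP sulfurylase that starts sulfate assimilation, fell by 1.78 and 0.92 on the log2 scale against the arrays labelled parental but were 0.45 and 0.33 above the nearer evolved strain. Altogether 6 of the 32 genes were higher than in both other strains (18.8%) and 2 were lower (6.25%). The shares over all genes were 5.14% and 3.82%. Of the lower ones MET31, a transcription factor of the pathway, stood at 6.92 and 7.04 in strain 2, 7.78 and 7.81 for strain 1, 7.73 and 7.63 in strain 3, and 9.63 and 9.65 on the arrays labelled parental, so that its difference from those arrays was -2.65 in strain 2, -1.84 in strain 1 and -1.96 in strain 3. The other was MET28, a cofactor of the same regulators. JLP1 and MHT1 are neighbours: in the gene order of the R64 annotation the 6 measured genes MHT1, MMP1, GTT2, JLP1, YLL056C and YCT1 of chromosome XII follow one another, and all 6 were called higher than in both other strains, a run chosen after the values were seen. They include the permeases MMP1 (S-methylmethionine) and YCT1 (cysteine). Without 1 evolved array in turn, 3 to 5 of the sulfur genes were called.

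FDH1, formate dehydrogenase, which oxidises formate to carbon dioxide, lay furthest from the other evolved strains by the smaller of the 2 differences. It stood at 9.74 and 9.75 in strain 2, 8.42 and 8.34 for strain 1, 8.32 and 8.25 in strain 3, and 9.19 and 9.18 on the arrays labelled parental. Strain 2 was 2.57-fold above strain 1 and 2.75-fold above strain 3 (joint adjusted p = 6.72e-05). The log2 difference of FDH1 from the arrays labelled parental was 0.56 in strain 2, -0.81 in strain 1 and -0.90 in strain 3, so that the evolved strains lay on both sides of them. In the rest of the one-carbon list, MIS1, the mitochondrial tetrahydrofolate synthase, was 0.38 above the nearer strain, and no other of the 16 measured genes had a joint call.

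Among vitamin and mineral genes, 4 of 8 biotin genes were higher than in both other strains (50%): BIO3, BIO4 and BIO5, neighbours on chromosome XIV that import and convert biotin precursors, by 0.36, 0.24 and 0.28 against the nearer strain, and BPL1, which attaches biotin to proteins, by 0.16. Of 16 genes of the zinc regulon 6 were higher (37.5%), among them ZPS1 by 0.36, the transcription factor ZAP1 by 0.26 and the uptake transporter ZRT1 by 0.20; ZPS1 stood at 9.54 and 9.55 in strain 2, 9.20 and 9.18 for strain 1, 8.40 and 8.47 in strain 3, and 7.92 and 7.87 on the arrays labelled parental. Of 24 phosphate-responsive genes 5 were higher (20.8%), including the phosphate transporter PHO90 by 0.42 and PHM6 by 0.23. Beside these lists, 5.14% of all genes were called higher than in both other strains. PHO5 was 0.44 above strain 1 and 0.57 above strain 3 without a joint call (joint adjusted p = 0.146). The standard error of PHO5, 0.149, takes in the spread of the arrays labelled parental, at 7.11 and 6.59, while strain 2 stood at 11.15 and 11.13. Without 1 evolved array in turn, 1 to 3 of the biotin genes, 1 to 3 of the zinc genes and 3 to 5 of the phosphate genes were called, and centring left 3 zinc genes. Lysine synthesis, higher than on the arrays labelled parental for 10 of 10 genes (median 1.76 in strain 2, 1.48 in strain 1 and 1.67 in strain 3), gave 3 joint calls (30.0%), LYS9, LYS4 and LYS12, none of which was called when any 1 evolved array was left out.

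Genes of the cell wall, of lipid synthesis and of export also differed one by one. GAS1, which extends wall glucan, was 1.51-fold and 1.58-fold above strains 1 and 3 and 4.12-fold above the arrays labelled parental. CWP2, a mannoprotein of the wall, was 0.38 above the nearer strain, and with TIP1 and FKS1 they were the 4 of 39 wall genes called higher (10.3%), a count of 2 to 3 without 1 evolved array. ELO2, a fatty acid elongase, was 1.69-fold and 1.51-fold above strains 1 and 3, MVD1 of the mevalonate pathway 1.48-fold and 1.36-fold, and PDR12, an exporter of organic acids, 1.38-fold and 1.36-fold. Called higher than in both other strains were 2 of 16 fatty acid genes (12.5%), 3 of 28 ergosterol genes (10.7%) and 3 of 22 drug efflux genes (13.6%). The share over all genes was 5.14%.

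On chromosome III a run of neighbouring genes was lower in strain 2 than in either other evolved strain. In the gene order of the R64 annotation the run from MAK32 to RHB1 holds 13 protein-coding genes, lies between tRNA genes and had 11 measured members; its bounds were chosen from these data, so it is described without a test. MAK32, needed to maintain a double-stranded RNA virus of yeast, stood at 8.23 and 8.21 in strain 2, 9.37 and 9.42 for strain 1, 9.22 and 9.26 in strain 3, and 9.61 and 9.48 on the arrays labelled parental. It was 2.25-fold and 2.03-fold below strains 1 and 3 and 2.51-fold below the arrays labelled parental (joint adjusted p = 0.000361). HTL1, a subunit of the RSC chromatin remodeller, stood at 7.78 and 7.89 in strain 2, 9.40 and 9.24 for strain 1, 8.35 and 8.46 in strain 3, and 9.03 and 8.96 on the arrays labelled parental. NPP1, a nucleotide pyrophosphatase, was 1.88-fold and 2.2-fold below strains 1 and 3, and SLM5, the mitochondrial asparagine tRNA synthetase, 1.93-fold and 2.21-fold.

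Of the 11 measured genes of the run 10 were called lower than both other strains, with all 8 arrays, under every alternative tried and without any 1 array. The exception was HSP30, a heat shock protein of the plasma membrane, at 12.96 and 12.97 in strain 2, 12.96 and 12.95 for strain 1, 13.52 and 13.53 in strain 3, and 14.12 and 14.13 on the arrays labelled parental. The median of the run was -0.91 against strain 1, -0.67 against strain 3 and -1.13 against the arrays labelled parental; strains 1 and 3 differed from those arrays by medians of 0.10 and 0.01. Against the arrays labelled parental 9 were called lower and 1, PMP1, which regulates the proton pump of the plasma membrane, higher. Among the 30 annotated genes on each side of the run 41 were measured. Of these 41, 2 (RRT12 and CTR86) were lower and 1 (ELO2) was higher than in both other strains, named here after their values were seen. The medians of the 41 were 0.03 against strain 1, -0.0001 against strain 3 and 0.48 against the arrays labelled parental.

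**Figure D5:**
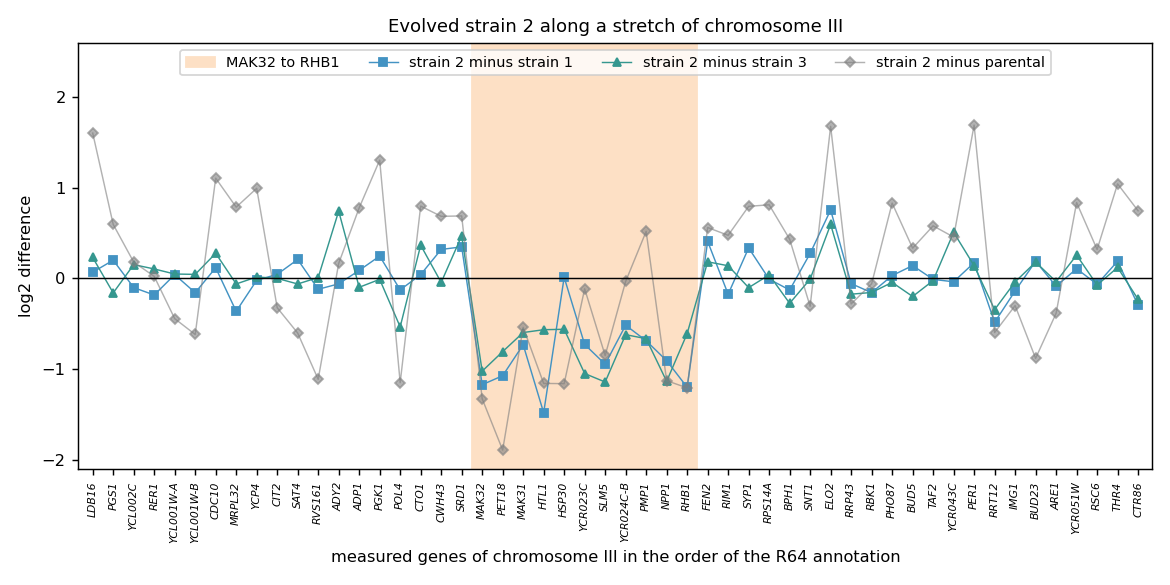
Log2 difference of strain 2 minus strain 1 (squares), strain 3 (triangles) and the arrays labelled parental (diamonds) for the measured genes around the run from MAK32 to RHB1 (shaded), in the order of the R64 annotation. Against both other evolved strains the shaded genes lie below 0 except HSP30 against strain 1, and the flanking genes scatter around 0.

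Outside that run the genes furthest below both other strains were MSH5, MET31 and SHH3. MSH5, which acts in meiotic recombination, stood at 8.06 and 8.03 in strain 2, 8.90 and 8.88 for strain 1, 8.74 and 8.77 in strain 3, and 8.68 and 8.69 on the arrays labelled parental, so that strain 2 was below all other arrays. SHH3, a relative of a succinate dehydrogenase subunit, differed from the arrays labelled parental by -2.23 (log2) in strain 2, -1.68 in strain 1 and -1.31 in strain 3. YDR222W, whose role is not given here, was above all other arrays in strain 2, at 7.34 and 7.25, against 6.15 and 6.39 for strain 1, 6.21 and 6.45 in strain 3, and 6.28 and 6.18 on the arrays labelled parental. YAL037C-A, at 4.99 and 4.89 in strain 2, was at background on all 6 other arrays, and at least 1.49-fold above the arrays labelled parental.

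Genes that moved against parental in one direction and differed from the other evolved strains in the opposite one were led by JLP1, PMP1, FMP48, YLL056C, SEO1 and CIN5. PMP1 was the higher one, 0.52 above the arrays labelled parental in strain 2 and 1.21 and 1.18 above them in strains 1 and 3. FMP48, a kinase found in mitochondria, differed from the arrays labelled parental by -0.65 in strain 2, -1.40 in strain 1 and -1.24 in strain 3. CIN5, a stress transcription factor, stood at -1.70, -2.20 and -2.27 in strains 2, 1 and 3 by the same measure, and the putative permease SEO1 at -0.24, -1.09 and -0.76. MEP2, at 8.37 and 8.30 in strain 2, 7.94 and 7.99 for strain 1, 7.89 and 7.91 in strain 3, and 12.03 and 11.95 on the arrays labelled parental, had the same order.

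In several lists with large differences from the arrays labelled parental strain 2 had few calls of its own. Of 22 Hsp70 and Hsp90 chaperones 18 were lower than on the arrays labelled parental and 3 higher (median -1.01 in strain 2, -1.20 in strain 1, -1.04 in strain 3), and 1, the cochaperone CPR6, was lower than in both other strains (4.55%). All 16 measured disaggregase, small heat shock and Hsp40 genes were lower than on the arrays labelled parental, with 1 joint call, CUR1. Against the arrays labelled parental 42.5% of all genes were called higher and 42.6% lower. Glycogen genes were higher for 13 of 15 (median 1.14 in strain 2, 0.71 in strain 1, 1.15 in strain 3). Histidine synthesis was higher for 7 of 7 (medians 1.21, 0.99 and 1.15 in the same order). Branched-chain amino acid synthesis was higher for 9 of 12 (medians 0.86, 0.63 and 0.94). Glycogen, histidine and branched-chain genes had no joint call. Genes specific to haploid cells were lower for 13 of 14 and a-specific mating genes for 6 of 7, and AGA2, the binding subunit of a-agglutinin, was the lower joint call among the a-specific genes at -0.47 against the nearer strain. Over all 65 lists 40 had a member higher than in both other strains and 18 a member lower. Of all genes 5.14% were called higher and 3.82% lower, so a list can hold such a member by its size alone. These counts therefore say little about the lists.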

How the data were processed

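The deposited values are intensity values on a linear scale, made by the authors with RMA per the submitters' processing notes; its version, the annotation used and the genome build are not given in the sources used here. RMA corrects background, makes the distributions of all arrays alike and summarises each probe set, so a shift of all transcripts together cannot be seen. Log2 was taken here. Of 10928 probe sets, GEO's platform annotation gave 1 S. cerevisiae gene for 5498, covering 5449 genes. The probe set with the highest mean was used for the 47 genes with several, and 12 symbols were updated from the R64 annotation, which served only for names and neighbours. The 3683 unlisted probe sets and 1746 of another species were not tested. For a gene at background on every array of one side, folds are lower bounds against background.

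One limma 3.58.1 model (R 4.3.3) with 4 groups and 8 arrays had 4 residual and 2.52 prior degrees of freedom and a prior standard deviation of 0.0433. P-values were adjusted by Benjamini-Hochberg over 5449 genes. The joint test used the larger p of the contrasts with strains 1 and 3. Exact permutation tests between 2 pairs of arrays have a smallest possible p of 0.333, and the number of arrays limits the precision. The fit was tested on simulated data. Named genes were the 12 largest rises and falls against parental, the 12 highest and 12 lowest against both other strains, the 6 largest with opposite directions, up to 4 per list by either difference, and every member of lists of at most 17. Rises, falls, highest and lowest genes were taken from called genes whose 2 strain 2 arrays lay wholly on one side of the arrays compared. The members and the 65 gene lists were chosen with earlier results of these data known.

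The replicate numbers did not pair the arrays: the correlation across genes of replicate 1 minus replicate 2 between groups ran from -0.123 to 0.0307. Alternatives were other scalings, a filter on dim genes, an offset of 16 in the log, a robust prior with statmod 1.5.0, averaging probe sets, the replicate number as a block, the 4 arrays alone, and leaving out each array. No probe sequences were used.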

Additional observations from a re-analysis of the deposited data

Results flagged for a closer look

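The 488 genes that differed between strain 2 and both other evolved strains were noted because the same comparison with the arrays labelled parental gave a different result in strain 2 than in strains 1 and 3, by the joint test of that difference with limma. Among them, the smaller log2 difference was highest for FDH1 (1.36), HXT2 (1.09), JLP1 (0.98), YDR222W (0.96), HXT1 (0.95), IMD4 (0.91), AAH1 (0.86), ERB1 (0.81), ADH6 (0.80), ALD6 (0.78) and RCK1 (0.66). It was lowest for MAK32 (-1.02), SLM5 (-0.95), NPP1 (-0.91), PET18 (-0.81), YCR023C (-0.73), MSH5 (-0.71), MET31 (-0.70), PMP1 (-0.67), RHB1 (-0.61), MAK31 (-0.60), HTL1 (-0.57) and SHH3 (-0.55). YAL037C-A was at background on the other 6 arrays, so that its measured difference of 1.10 has no rank among these, and it was at least 1.46-fold above strain 1.

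Outside the tested genes, 20 probe sets with no gene assigned were above background on both strain 2 arrays and on neither array labelled parental, and 16 were the other way round. Of the 20, 1 was above background in strain 2 alone.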

How the results depend on the processing

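Against the arrays labelled parental the number of called genes stayed between 4436 and 4647 under the other settings and between 4352 and 4699 without 1 array. Joint calls against both other evolved strains numbered 799 with the 6 evolved arrays alone, an alternative added after seeing the data, and 125 to 799 without 1 array; for strain 2 minus strain 3 the range was 760 to 2559 and for strain 2 minus strain 1 it was 1941 to 3469. A group left with 1 array is assumed to vary like the others. Quantile normalisation split the joint calls into 245 higher and 230 lower, median centring into 213 and 284, and a trended robust prior into 339 and 334 (673 in all).

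Since the replicate numbers do not pair the arrays, the replicate block gave only a count: 364 joint calls, 4595 against parental, 2775 against strain 1 and 1550 against strain 3. Of the 12 largest rises and 12 largest falls against parental and the 12 genes highest and 12 lowest against both other strains, none changed direction under any alternative run. Calls were lost among them in 7 cases, all without 1 evolved array: HXT2 against both other strains in 6 (adjusted p 0.0593 to 0.125) and HXT1 in 1 (adjusted p 0.0609). Of the 178 members of any list that were called against both, none changed direction, but only 49 to 91 were called without 1 evolved array, 132 with the replicate block and 147 with median centring, so a single list gene is often not called once an evolved array is left out. Counts of list members called, computed after seeing the data, mostly fell without 1 evolved array; the cause was not tested. Probe sets of 7 genes gave opposite directions against parental (ENA5, HXT9, PRM7, RPL14B, YBR219C, YOL166W-A and YOR072W-B).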

Other observations

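Other lists gave a few genes each in which strain 2 lay apart from both other evolved strains. Of all genes 5.14% were called higher and 3.82% lower than in both. TEC1, a transcription factor of filamentous growth, was 0.40 above the nearer strain and 0.78 above the arrays labelled parental. SOL3, a lactonase of the pentose phosphate pathway, was 0.36 above the nearer strain, and the transketolase TKL1 0.22. GPP1, which makes glycerol from its phosphate, stood at 9.77 and 9.76 in strain 2, 9.29 and 9.34 for strain 1, 9.10 and 9.03 in strain 3, and 11.01 and 11.00 on the arrays labelled parental, whereas SIP18, a stress protein of dry cells, differed from the nearer strain by -0.42. MAL33, an activator of maltose genes, differed from the nearer strain by -0.47.

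HMX1, which degrades heme when iron is short, was 0.37 above the nearer strain, with the cell wall mannoproteins FIT3 and FIT2 at 0.26 and 0.23; these were 3 of 26 genes of iron uptake (11.5%), a count of 1 to 3 without 1 evolved array. Of the neighbours SNZ3 and SNO3, which act in vitamin B6 and thiamine metabolism and whose near-identical copies can share probes, strain 2 was 0.33 and 0.32 above the nearer strain and differed from the arrays labelled parental by -1.70 and -1.88. Proteasome subunits gave 3 of 32 lower (9.38%), RPN6, RPN12 and RPN11, by -0.16, -0.16 and -0.14; none was called without any 1 evolved array, and 1 to 9 were under the alternatives that kept all 6. On chromosome IX the neighbours IRC24, HYR1 and GTT1, of which GTT1 is a glutathione transferase and HYR1 a peroxidase, were each lower than in both other strains, by -0.17, -0.17 and -0.25, a run chosen after the values were seen.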
